A study of Mus musculus with 11 samples.

Results

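The simple epithelial keratins Krt7, Krt8, Krt18 and Krt19 were read on all 11 arrays of a study of reprogramming factor cassettes in mouse embryonic fibroblasts (MEFs). They were chosen by name, as listed keratin genes of simple epithelia, and make up 4 of the 19938 genes with a value. Every array came from male F1 hybrid MEFs taken at 13.5 days post coitum, which carried ROSA-rtTA, a doxycycline-dependent transactivator, and Nanog-GFP, a green fluorescent reporter of the pluripotency gene Nanog. All cultures, the lacZ control included, received a piggyBac transposon (PB-TAC, a DNA element that a transposase inserts into the genome), a transposase plasmid and 1 µg/mL doxycycline, which switched on the transgene and a linked mCherry reporter. The 8 cassette arrays held cells with a polycistronic vector (OSKM, MKOS, OKMS, OK+9MS, OKN-HAMS, STEMCCA, WTSI or EB-C5), and the Klf4-alone arrays held cells with Klf4S or Klf4L, the second of which is labelled as Klf4 with the 9-residue extension. These 10 populations were gated on mCherry by flow sorting at day 6. The lacZ population was harvested on day 2 and unsorted, so for every difference from lacZ the transgene, the day and the sort cannot be told apart. Each construct was measured on 1 array, and constructs are not repeats of one another. The labels do not say which Klf4 form the cassettes other than OKMS and OK+9MS carry.

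Keratins are the intermediate filament proteins of epithelial cells. A filament forms only from heteropolymers that pair a type II keratin, such as Krt7 or Krt8, with a type I keratin, such as Krt18 or Krt19. Krt8 and Krt18 are the first keratins of the mouse embryo and the basic pair of one-layered epithelia such as liver and gut, while Krt7 and Krt19 add to them in ducts, mesothelium and trophoblast. Fibroblasts build their filaments from vimentin, and early reprogramming of fibroblasts is known to include a mesenchymal-to-epithelial transition in which epithelial genes are switched on. The series asked how the make-up of the construct, and Klf4 in particular, acts on cells on the way to pluripotency.

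The annotated promoters of these genes are shown because all 10 constructs other than lacZ supply transcription factors and these keratins differed among them. RefSeq promoter entries (GRCm38.p6) were found for 3 of the 4 genes, Krt7 at chr15:101412153-101412452 (plus strand), Krt8 at chr15:102004293-102004592 (minus strand) and Krt18 at chr15:102027966-102028265 (plus strand). Each covers 250 bases before the annotated start and 50 after it. Krt19 had no entry. Capitals mark CCNCNCCC, letters shared by the GC and CACCC boxes that Klf and Sp factors bind, and CACCTG, the E-box of the Snail and Zeb repressors, on either strand.
Krt7: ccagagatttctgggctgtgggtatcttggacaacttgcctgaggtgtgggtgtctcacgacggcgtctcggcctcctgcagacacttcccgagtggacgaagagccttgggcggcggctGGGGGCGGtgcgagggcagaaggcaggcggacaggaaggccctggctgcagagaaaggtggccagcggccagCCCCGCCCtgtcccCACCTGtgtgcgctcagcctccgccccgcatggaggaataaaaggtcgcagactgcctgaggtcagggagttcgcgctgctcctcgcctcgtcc
Krt8: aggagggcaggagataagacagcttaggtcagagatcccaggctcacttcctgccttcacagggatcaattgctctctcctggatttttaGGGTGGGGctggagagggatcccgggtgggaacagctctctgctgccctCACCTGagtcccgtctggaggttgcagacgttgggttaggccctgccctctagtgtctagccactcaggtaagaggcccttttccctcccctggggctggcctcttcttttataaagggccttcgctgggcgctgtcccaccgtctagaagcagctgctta
Krt18: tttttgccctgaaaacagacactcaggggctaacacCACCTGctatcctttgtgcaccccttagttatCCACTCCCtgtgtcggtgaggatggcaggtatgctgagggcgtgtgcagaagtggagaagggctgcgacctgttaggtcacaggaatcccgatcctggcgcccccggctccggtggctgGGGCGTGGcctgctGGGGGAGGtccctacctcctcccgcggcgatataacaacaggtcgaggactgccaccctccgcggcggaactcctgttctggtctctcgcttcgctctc

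Both strands were searched. CCNCNCCC had 2 matches in the Krt7 window, 1 in Krt8 and 3 in Krt18, and was present in 49.5% of all 32851 promoter entries of this length. CACCTG had 1 match in each of the 3 windows, first base at -44 in Krt7, -111 in Krt8 and -214 in Krt18 relative to the start, and was present in 20.2% of entries. The TATA box letters TATAAA had 2 matches in Krt8, which overlap each other on opposite strands at the annotated start, and 0 in the other windows, against 13.6% of entries. The AP-1 letters TGANTCA (7.81% of entries) and the octamer ATGCAAAT (1.74%) had 0 matches in the 3 windows. The marked letters did not overlap another motif searched. These matches describe the sequence only, and no array value here measures binding.

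The deposited values are log2 expression values summarised per probe set by RMA, so a difference of 1 is 2-fold. Each keratin had 1 probe set. The arrays' gene medians lay between 7.54 and 7.67, and their number limits the precision. A reading under 6 may be background, and large differences can be understated. Vim, the vimentin gene of fibroblasts, read 13.38 to 13.76 on all 11 arrays. The mean of 10 measured fibroblast markers was 10.66 to 11.65 in the cassettes, 11.97 to 11.98 in Klf4 alone and 10.58 in lacZ. That mean covers unlike members, since 7 of the 10 had a cassette mean above lacZ and the rest did not. Lum read 7.58 to 9.46 in the cassettes and 6.54 in lacZ, while Thy1 read 9.64 to 11.66 and 11.80. The Pou5f1 (Oct4) signal was 11.89 to 13.22 in the 8 cassettes, 6.06 (Klf4S) and 5.84 (Klf4L) with Klf4 alone, and 6.09 in lacZ. In these bulk samples fewer cells that express a gene and less of its RNA per cell cannot be told apart.

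Krt8, the type II partner that embryonic and one-layered epithelia share, was above lacZ in every construct. Its level was 13.36 in OSKM, 11.61 in OKMS, 13.43 in OK+9MS, 12.88 in MKOS, 9.18 in STEMCCA, 9.35 in EB-C5, 9.24 in WTSI and 13.39 in OKN-HAMS. With Klf4 alone it was 10.97 (Klf4S) and 11.23 (Klf4L), and lacZ read 8.02. The lacZ array was therefore the lowest of the 11, and both Klf4-alone arrays lay inside the range of the cassettes. The differences from lacZ ran from 1.15 in STEMCCA, a 2.23-fold excess, to 5.41 in OK+9MS, a 42.4-fold excess. Krt8 was at least 2-fold above lacZ on all 10 other arrays, as were 0.125% of all genes (25 genes), and 8.77% of all genes were above lacZ on all 10 by any amount. With 1 array a construct, a step between neighbours in the order was set against the SD over all genes of the difference between those arrays. By that measure OK+9MS, OKN-HAMS and OSKM were not separated (steps of 0.04 and 0.03, SD 0.29 and 0.31), MKOS came 0.48 below OSKM (SD 0.31), and OKMS came 1.28 below MKOS (SD 0.48). OKMS and Klf4L were not separated (0.38, SD 0.67), and Klf4L and Klf4S were (0.26, SD 0.13). The widest step, 1.62, lay between Klf4S and EB-C5, and EB-C5, WTSI and STEMCCA were not separated from each other (0.10 and 0.07, SD 0.30 and 0.37). STEMCCA, the lowest of them, was 1.15 above lacZ (SD 0.39).

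Krt7, the type II keratin of ducts and mesothelium, differed from lacZ in the opposite direction on most arrays. It read 9.35 in OSKM, 6.91 in OKMS, 8.02 in OK+9MS, 7.68 in MKOS, 6.96 in STEMCCA, 6.89 in EB-C5, 6.78 in WTSI and 7.77 in OKN-HAMS. Klf4S and Klf4L read the same value, 7.62, and lacZ read 8.70. Thus OSKM alone was above lacZ, by 0.65, and the other 9 constructs were below it by between 0.68 (OK+9MS) and 1.92 (WTSI). The WTSI level corresponded to a 3.78-fold deficit. Of all genes, 22.4% were below lacZ on at least 9 of the 10 arrays, so this count does not set Krt7 apart. OSKM was separated from lacZ, and lacZ from OK+9MS, by more than the SD over all genes (steps of 0.65 and 0.68, SD 0.59 and 0.57). From OK+9MS down to Klf4L no neighbours were separated. A step of 0.65 (SD 0.44) led to STEMCCA, OKMS, EB-C5 and WTSI, which were not separated from each other.

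Krt18, the type I partner of Krt8, lay on both sides of lacZ. Its level was 9.45 in OSKM, 7.60 in OKMS, 9.65 in OK+9MS, 8.38 in MKOS, 7.25 in STEMCCA, 7.23 in EB-C5, 7.68 in WTSI and 9.51 in OKN-HAMS. It was 8.35 in Klf4S, 8.39 in Klf4L and 7.92 in lacZ. OK+9MS, OKN-HAMS and OSKM stood apart from the rest, 1.06 above the next array (SD over all genes 0.56), and were 3.31-fold, 3.0-fold and 2.87-fold above lacZ. MKOS, Klf4S and Klf4L were above lacZ by 0.46, 0.43 and 0.47, and WTSI, OKMS, STEMCCA and EB-C5 were below it by 0.24, 0.32, 0.67 and 0.69. No 2 neighbours from Klf4L down to EB-C5 were separated by more than the SD over all genes. On STEMCCA, EB-C5, WTSI and OKMS, Krt8 was thus above lacZ while Krt18 was not.

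Krt19, the type I keratin that lacks the tail domain of other keratins, spanned the widest range of the 4 among the cassettes. Its level was 12.00 in OSKM, 9.86 in OKMS, 12.33 in OK+9MS, 10.88 in MKOS, 9.34 in STEMCCA, 7.88 in EB-C5, 8.71 in WTSI and 11.91 in OKN-HAMS. It was 9.40 in Klf4S, 9.53 in Klf4L and 9.95 in lacZ. OK+9MS (2.38), OSKM (2.06), OKN-HAMS (1.97) and MKOS (0.93) were above lacZ and the other 6 constructs were below it. OKMS was 0.09 below lacZ and EB-C5 2.06 below, a 4.18-fold deficit. Steps between neighbours exceeded the SD over all genes below OK+9MS (0.33, SD 0.21), below OKN-HAMS (1.03, SD 0.42), below MKOS (0.93, SD 0.49), below STEMCCA (0.64, SD 0.37), below WTSI (0.83, SD 0.30) and, narrowly, between Klf4L and Klf4S (0.133, SD 0.126). The 4 cassettes with the highest Krt19 were the 4 with the highest Krt7, Krt8 and Krt18, namely MKOS, OK+9MS, OKN-HAMS and OSKM. These were the 4 highest cassettes for 5.40% of all genes (1076 genes).

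**Figure D1:**
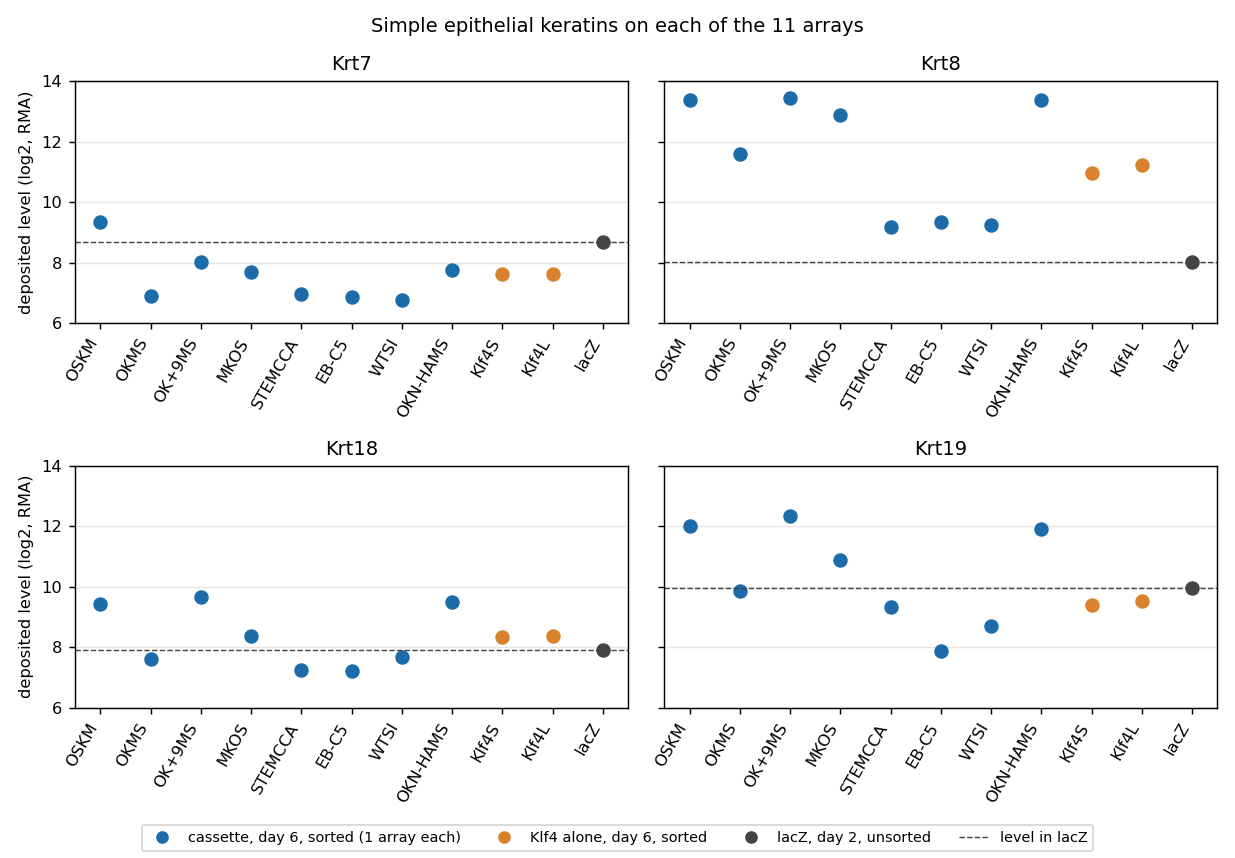
Deposited log2 level (vertical axis) of Krt7, Krt8, Krt18 and Krt19 on each of the 11 arrays (horizontal axis), 1 point per array; blue points are cassettes, orange points Klf4 alone, the grey point and dashed line lacZ. Krt8 lies above the lacZ line on all 10 arrays, Krt7 below it on 9, and Krt18 and Krt19 lie on both sides.

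Counted by construct, 16 of the 40 differences from lacZ were 2-fold or more above it and 9 were 2-fold or more below it; the 10 differences of a gene share the 1 lacZ array. In OSKM 3 keratins (Krt8, Krt18 and Krt19) were at least 2-fold higher and 0 lower, against 4% and 2.71% of all genes. OK+9MS showed the same 3 higher and 0 lower (3.71% and 2.33% of all genes), and so did OKN-HAMS (4.08% and 5.04%). In 5 constructs Krt8 was at least 2-fold higher and Krt7 at least 2-fold lower, with Krt18 and Krt19 inside that limit. These were OKMS (3.39% of all genes higher, 4.12% lower), MKOS (2.71% and 1.67%), STEMCCA (1.45% and 1.27%), Klf4S (1.88% and 2.01%) and Klf4L (1.99% and 1.98%). In EB-C5 (3.01% and 4.58%) and WTSI (2.14% and 3.22%) Krt8 was at least 2-fold higher while both Krt7 and Krt19 were at least 2-fold lower. On these 7 arrays Krt8 was thus at least 2-fold above lacZ while neither Krt18 nor Krt19 was.

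**Figure D2:**
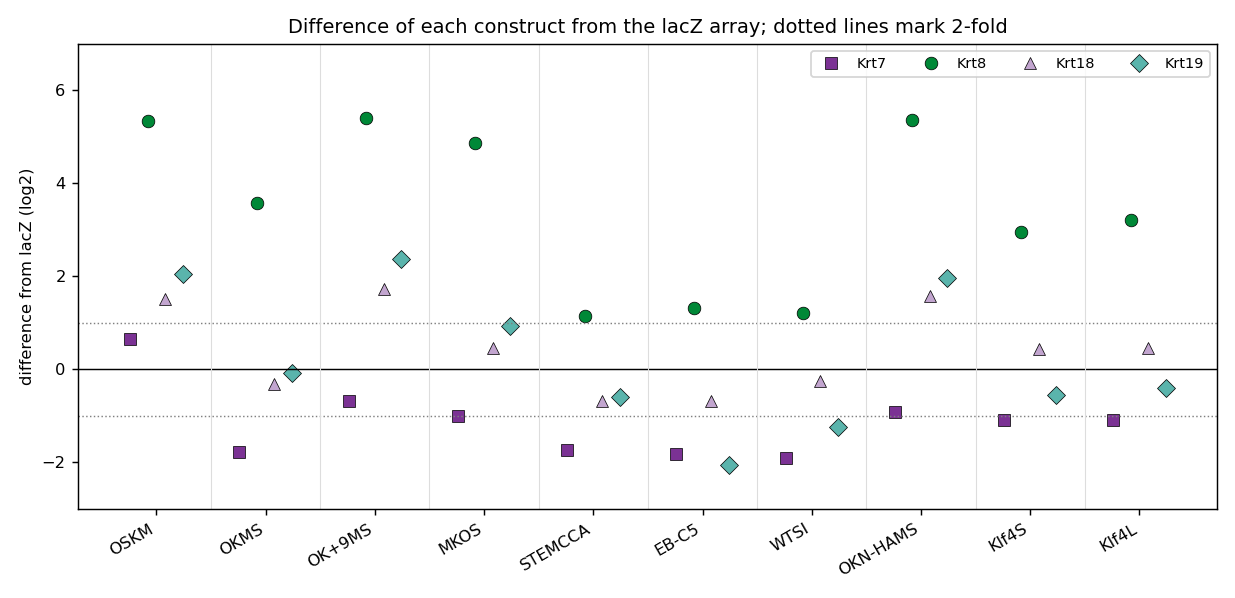
Difference of each construct from the lacZ array (vertical axis, log2) for the 4 keratins (symbols), with constructs along the horizontal axis and dotted lines at 2-fold; each symbol is 1 array against 1 array, with no error. Krt8 (circles) lies above the upper line throughout, from 1.15 to 5.41, and Krt7 (squares) lies above 0 only in OSKM.

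The group comparisons asked what cassettes and Klf4 alone share against lacZ and how they differ from each other. No keratin passed the test in any of them. For the cassettes against lacZ (n = 8 and n = 1) the limma differences were 3.53 ± 1.80 (SE) for Krt8, -1.15 ± 0.79 for Krt7, 0.42 ± 0.95 for Krt18 and 0.42 ± 1.51 for Krt19. The limma adjusted p values were 0.396, 0.567, 0.953 and 0.988 over all 19938 genes, and the 95% interval for Krt8 ran from -0.51 to 7.57. The test called 2.05% of all genes, 0.456% higher and 1.59% lower. Without an array the call count of 409 became 272 (OSKM), 241 (OK+9MS), 734 (STEMCCA) or 184 (Klf4S or Klf4L), with 0 keratins called each time. For Klf4 alone against lacZ (n = 2 and n = 1) Krt8 differed by 3.08 ± 2.08, Krt7 by -1.08 ± 0.91, Krt18 by 0.45 ± 1.10 and Krt19 by -0.48 ± 1.74 (limma adjusted p 0.681, 0.781, 0.970 and 0.987). That test called 0.747% of all genes, 0.271% higher and 0.476% lower. Its count of 149 became 93 without OK+9MS, 268 without MKOS, 40 without Klf4S and 36 without Klf4L.

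Cassettes and Klf4 alone were taken on the same day with the same sort, so this comparison is free of the difference in harvest. The group means were close for Krt7 (7.55 and 7.62), Krt8 (11.55 and 11.10) and Krt18 (8.34 and 8.37), and were 10.36 and 9.47 for Krt19. The limma differences were -0.07 ± 0.59, 0.46 ± 1.34, -0.03 ± 0.71 and 0.90 ± 1.12 (SE), with adjusted p values of 0.959, 0.879, 0.988 and 0.671. The 95% interval for Krt8, from -2.55 to 3.46, left room for differences of several fold in either direction. The signs for Krt7 and Krt18 turned when OKMS, STEMCCA, EB-C5 or WTSI was left out, to at most 0.037 and 0.13. The test called 14.5% of all genes, 6.35% higher and 8.12% lower, among them 0 of the 4 keratins. Its count of 2885 fell to 104 without Klf4S and 92 without Klf4L. At an unadjusted limma p under 0.05 the number of keratins was also 0 in all 3 comparisons, against 15.5%, 11.5% and 30.6% of all genes.

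**Figure D3:**
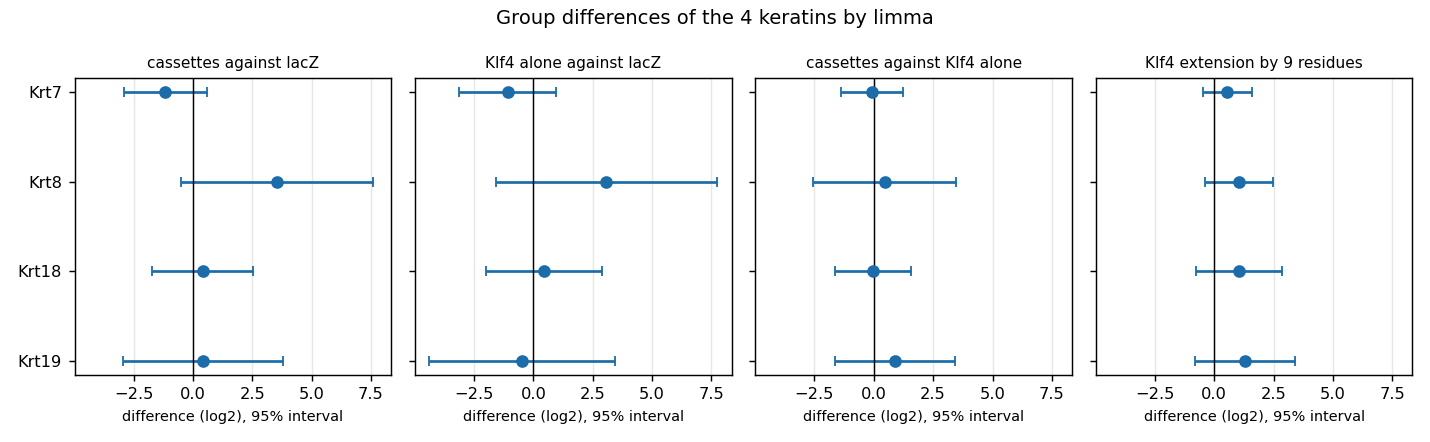
Limma difference (point, log2) and 95% interval (bar) for each keratin in the 4 comparisons, 1 panel each, with the vertical line at 0. Every interval includes 0; that of Krt8 in the cassettes against lacZ runs from -0.51 to 7.57.

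The labels allow a direct look at the 9-residue extension of Klf4 in 2 settings, a cassette (OK+9MS and OKMS) and Klf4 alone (Klf4L and Klf4S). In the cassette the extended form had more of each keratin. OK+9MS exceeded OKMS by 1.11 for Krt7 (2.16-fold), 1.82 for Krt8 (3.53-fold), 2.05 for Krt18 (4.14-fold) and 2.47 for Krt19 (5.55-fold). All 4 were 2-fold or more higher, as were 2.30% of all genes, while 0.878% were at least 2-fold lower, and the SD of this difference over all genes was 0.42. In Klf4 alone, Klf4L minus Klf4S was 0 for Krt7, 0.26 for Krt8, 0.04 for Krt18 and 0.13 for Krt19, with an SD over all genes of 0.13 and 0 genes at 2-fold in either direction. Fitted over both settings (n = 2 and n = 2), the limma difference was 0.55 ± 0.33 (SE) for Krt7, 1.04 ± 0.45 for Krt8, 1.04 ± 0.58 for Krt18 and 1.30 ± 0.67 for Krt19, each with an adjusted p of 0.943. That fit left 1 residual degree of freedom and called 0 of 19938 genes (0%), with 219 genes and 0 keratins at an unadjusted p under 0.05. Whether the effect differed between the 2 settings was not tested, because no array was repeated.

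The cassettes differed from each other in these genes far more than in most. The SD over the 8 cassettes was 1.99 for Krt8, 1.67 for Krt19, 1.05 for Krt18 and 0.87 for Krt7, where the median gene had 0.159. The share of all genes with a smaller SD was 99.9% for Krt8, 99.8% for Krt19, 99.1% for Krt18 and 98.5% for Krt7. From the lowest to the highest cassette Krt19 spanned 21.8-fold, Krt8 19.0-fold, Krt7 5.92-fold and Krt18 5.34-fold. The Krt7 figure rests on OSKM, without which its SD was 0.516. These are spreads between constructs with 1 array each, so they include array-to-array error.

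**Figure D4:**
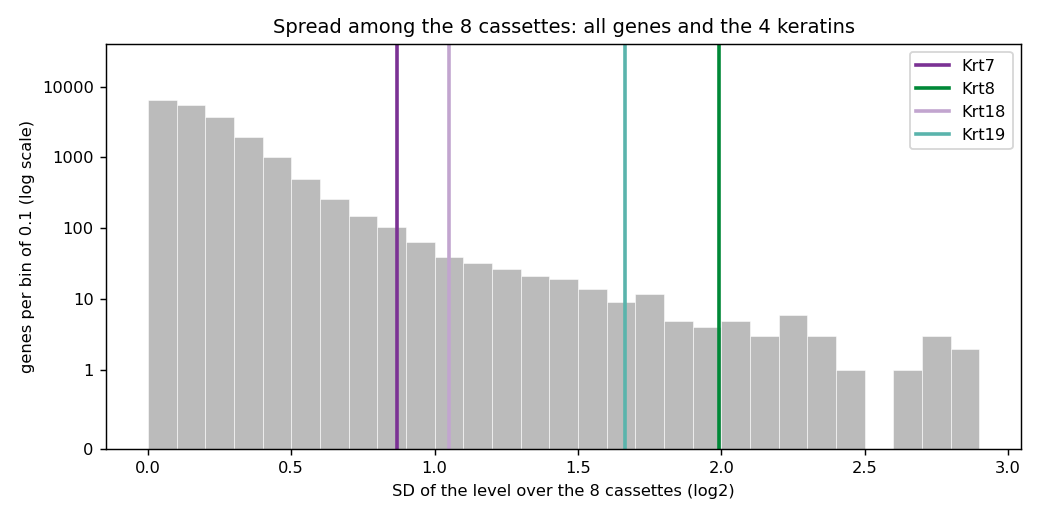
Number of genes (vertical axis, log scale) by the SD of their level over the 8 cassettes (horizontal axis, log2, bins of 0.1), with the 4 keratins as vertical lines. Krt7 (0.87), Krt18 (1.05), Krt19 (1.67) and Krt8 (1.99) lie in the right tail; the median gene has 0.159.

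How closely the keratins followed each other was described over arrays that share their cells and, apart from lacZ, their day and sort. Krt8 and Krt19 had a Pearson r of 0.82 over 11 arrays (permutation p = 0.0028, adjusted 0.0168 over 6 pairs) and a Spearman rho of 0.76 (permutation p = 0.00871, adjusted 0.0261). Without lacZ and OK+9MS, the arrays farthest from the median of Krt8, r was 0.93. Krt8 then fell into separate clusters (9.35 or less, 10.97 or more), so this r does not show how closely these genes followed each other. For Krt7 and Krt19 r was 0.67 (permutation p = 0.0236, adjusted 0.0708) and rho was 0.86 (permutation p = 0.00145, adjusted 0.0087), with r at 0.80 without OSKM and lacZ. Without those arrays Krt7 fell into separate clusters (6.96 or less, 7.62 or more), so the 0.80 has the same limit. For Krt7 and Krt8 r was 0.36 (permutation p = 0.283, adjusted 0.283) and rho 0.44 (permutation p = 0.173, adjusted 0.208). For this pair r was 0.76 without lacZ and 0.84 without OSKM and lacZ. In both sets Krt8 fell into separate clusters (9.35 or less, 10.97 or more), and so did Krt7. The rise in r therefore does not show that these genes followed each other more closely without lacZ. Krt18 fell into separate clusters, with OSKM, OKN-HAMS and OK+9MS above a gap of 43.7% of its range, so its pairs were taken over the other 8 arrays. There r was 0.58 with Krt7, 0.57 with Krt8 and 0.62 with Krt19 (exact permutation p = 0.131, 0.136 and 0.0979, adjusted 0.163 each), and rho was 0.65, 0.43 and 0.62 (adjusted 0.172, 0.299 and 0.172). Leaving out the 2 arrays farthest from the median gave r of 0.97, 0.67 and 0.48. The 8 arrays still fell into clusters of Krt18 (7.92 or less, 8.35 or more), before and after these were left out. For Krt7, lacZ (8.70) lay apart from the rest (7.68 or less). The arrays behind the 0.97 had Krt7 at 6.96 or less or at 7.62 or more. These r values for Krt18 therefore do not show likeness within a cluster.

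The genes most like each keratin over the 11 arrays were ranked by Pearson r among 14627 genes, as a description of 11 arrays that differ in construct. Krt8 was followed most closely by Ly6g6c (r = 0.98) and the desmosomal plakophilin Pkp1 (0.98), then by the microtubule-binding protein Map7 (0.97), the membrane serine protease St14 (0.97) and the mucosal keratin Krt13 (0.97). Krt18 was followed by Cystm1 (0.97), Crybg1 (0.97), the polarity protein Llgl2 (0.97), Sh3tc1 (0.97) and the adhesion receptor Nectin4 (0.97). Krt19 was followed by Arrdc1 (0.97), Mucl3 (0.97), Cnksr1 (0.96), Lrrc8e (0.96) and Plek2 (0.95). Krt7 was followed by the sterol oxidase Msmo1 (0.93), Tango2 (0.93), the zinc transporter Slc39a11 (0.92), Tnfaip1 (0.89) and Bod1 (0.89). No gene was among the 5 nearest of more than 1 keratin. By the lowest of its 4 correlations, the gene nearest to all 4 was the glycosyltransferase B3gnt3 (0.77), followed by the laminin receptor subunit Itga6 (0.76), Tmcc3 (0.75), Pcdh1 (0.75), Bmp15 (0.75), Dock2 (0.74), Tpd52 (0.74) and Eng (0.74). All 11 arrays entered this ranking, including the 3 above the Krt18 gap, and how far the Krt18 and lowest-of-4 values rest on those 3 was not tested. Bmp15 read no higher than 6.40 and Dock2 no higher than 6.68, near the low end of the arrays.

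Other keratins were read for comparison. Among 4 other simple or transitional keratins, 0 passed the test in any of the 4 comparisons. Of all genes, 2.05% (cassettes against lacZ), 0.747% (Klf4 alone against lacZ), 14.5% (cassettes against Klf4 alone) and 0% (extension) passed. A count of 0 in a list of 4 or 12 genes therefore does not set it apart. Krt80, a keratin of maturing epithelia, read 7.95 (STEMCCA) to 11.34 (OSKM) in the cassettes, 10.07 (Klf4S) and 10.25 (Klf4L) with Klf4 alone, and 8.83 in lacZ. Krt20, a gut and urothelial keratin, read 8.31 in MKOS and 5.92 to 6.91 in the other cassettes, while Krt222 read 5.85 to 6.14 on all arrays. Among 12 stratified, basal and stress keratins, 0 passed as well, with median differences of 1.24 for the cassettes against lacZ and 1.34 for Klf4 alone against lacZ (medians of all genes -0.01 and 0.00). The basal keratin Krt14 read 6.76 (STEMCCA) to 12.48 (OSKM) in the cassettes, 10.84 (Klf4S) and 11.37 (Klf4L) with Klf4 alone, and 7.01 in lacZ. Krt17, a keratin of injured and basal epithelia, read 6.96 (STEMCCA) to 13.18 (OSKM), 10.60, 11.10 and 7.04 in the same order. The stress keratin Krt6b read 5.96 (EB-C5) to 12.28 (OKN-HAMS) in the cassettes and 6.31 in lacZ, with a mean of 10.18 in Klf4 alone. Of the 12 genes, 6 had the same 4 highest cassettes as Krt8, and 1 of the 4 simple or transitional keratins did (Krt80), as did 5.40% of all genes. All gene lists here were chosen with earlier results of these data known, so such counts are a description only.

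Other intermediate filament genes were read beside the keratins. Of 14, 0 had the 4 highest cassettes of Krt8, where 5.40% of all genes did, so this count does not set them apart. In the cassettes against lacZ the neurofilament light chain gene Nefl rose by 4.94 ± 0.99 (limma adjusted p = 0.0392) and the muscle filament gene Des fell by 2.09 ± 0.26 (limma adjusted p = 0.00571). Against Klf4 alone Nefl (5.11), the B-type lamin genes Lmnb1 (1.70) and Lmnb2 (0.55) were higher, and Sync (-1.66), Des (-1.45) and the peripheral neuron filament gene Prph (-0.43) lower. Vim differed by -0.08 ± 0.11 from lacZ and -0.16 ± 0.08 from Klf4 alone, past no threshold (limma adjusted p 0.855 and 0.209). Among genes not called, the lamin A gene Lmna read 10.21 to 11.21 over all arrays, the nestin gene Nes 9.03 to 10.04 and the neurofilament gene Nefm 5.62 to 6.10.

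Genes that anchor keratin filaments to junctions differed widely between cassettes, and none was called against lacZ. Of 14 linker and desmosome genes, 8 had the same 4 highest cassettes as Krt8, as did 5.40% of all genes. The median difference from lacZ was 0.56 in the cassettes and 0.72 in Klf4 alone. Against lacZ 0 of the 14 were called, where 2.05% (cassettes) and 0.747% (Klf4 alone) of all genes were. That count of 0 does not set them apart. The desmoplakin gene Dsp, whose protein ties keratins to desmosomes, read 7.72 (STEMCCA) to 11.40 (MKOS) in the cassettes, 9.78 (Klf4S) and 9.80 (Klf4L) with Klf4 alone, and 6.83 in lacZ. Its difference from lacZ was 3.46 ± 1.14 in the cassettes (limma adjusted p = 0.177). The desmocollin gene Dsc2 read 6.69 to 9.94 in the cassettes, 8.67, 8.64 and 6.17 in that order, and Pkp1 read 7.75 to 10.52, 9.08, 9.23 and 7.06. Against Klf4 alone 3 of the 14 genes were called, where 14.5% of all genes were, namely the plakophilin Pkp2 (1.49, higher), the desmocollin Dsc3 (-2.20) and the cytolinker Plec (-0.86). Dsc3 was highest in Klf4 alone (8.44 and 8.68), with 5.72 to 6.95 in the cassettes and 6.41 in lacZ, and its readings in OKMS, EB-C5 and WTSI were under 6.

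Among 11 genes whose proteins bind, cleave or modify simple keratins, Casp6, a caspase that cleaves Krt18, fell by 0.81 ± 0.16 in the cassettes against lacZ (limma adjusted p = 0.0391) and by 0.46 ± 0.12 against Klf4 alone (adjusted p = 0.0356). Pnn, a desmosome-associated and nuclear protein, was 0.51 higher than in Klf4 alone. Sfn, the 14-3-3 sigma gene, spanned 7.53 (WTSI) to 12.28 (OK+9MS) over the cassettes and was 10.91 for Klf4S, 11.10 for Klf4L and 9.27 for lacZ, and did not pass. Trim29 (6.41 to 9.94 in the cassettes, 6.90 in lacZ) and Fam83h, which organises keratin filaments (8.51 to 10.02, 8.63), did not pass either. Sfn and Trim29 were the 2 of the 11 with the 4 highest cassettes of Krt8, which 5.40% of all genes shared.

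Epithelial regulators and junction genes were read in the same way. Of 15 transcription and splicing regulators, 0 passed against lacZ (2.05% of all genes) and 1 against Klf4 alone (14.5% of all genes). That 1 was the Ets factor Elf3 (0.66 higher). Of the 15, 4 had the 4 highest cassettes of Krt8, as did 5.40% of all genes. The Ets factor Ehf read 6.95 to 11.30 in the cassettes, 6.73 in Klf4S and Klf4L and 6.12 in lacZ, and the splicing factor Esrp1 read 6.10 to 10.62, 6.48, 6.57 and 5.98. Grhl3 read 7.55 to 9.78 in the cassettes, 9.53 (Klf4S) and 9.46 (Klf4L) with Klf4 alone, and 6.88 in lacZ. Of 17 surface and junction genes, all 17 mean differences from lacZ were above 0 in the cassettes (median 1.45). None was called, where 2.05% of all genes were. The 4 highest cassettes of Krt8 were those of 13 of the 17, and of 5.40% of all genes. Against Klf4 alone the adhesion molecule Epcam (3.12 ± 0.89, limma adjusted p = 0.046) and the tricellular junction gene Lsr (1.26 ± 0.34, adjusted p = 0.0394) rose. Epcam read 5.98 in Klf4S and 6.03 in Klf4L, at background, where Krt8 read 10.97 and 11.23. Cdh1, the E-cadherin gene, read 7.43 to 11.46 in the cassettes, 7.05 (Klf4S) and 7.42 (Klf4L) with Klf4 alone, and 6.36 in lacZ (difference from lacZ 3.65 ± 1.51 in the cassettes, limma adjusted p = 0.284). Spint1 read 7.27 to 11.33 in the cassettes and 7.07 to 7.33 on the other 3 arrays, and Cldn6 differed from lacZ by 1.79 ± 1.39.

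The calls in these lists rest on few arrays. Each of the 21 list genes called against Klf4 alone lost its call without Klf4S and without Klf4L, and of the filament and linker genes named above, Nefl, Des, Lmnb1, Prph and Dsc3 kept it without any 1 cassette. Against lacZ, Des kept its call without any 1 array, Nefl lost it without OSKM, OKMS, OK+9MS, EB-C5, WTSI, OKN-HAMS, Klf4S or Klf4L (adjusted p up to 0.0755), and Casp6 lost it without OSKM, OKMS, OK+9MS, MKOS, EB-C5, WTSI, Klf4S or Klf4L (up to 0.0761). Under other processing settings, calls were also lost for Casp6 against lacZ (3 settings, adjusted p up to 0.0761), Nefl against lacZ (1 setting, up to 0.0755), and, against Klf4 alone, Pnn (3, up to 0.0769), Lmnb2 (2, up to 0.0684), Plec (1, 0.0544) and Casp6 (1, 0.0505). For the cassettes against lacZ, the fit without Klf4S or Klf4L has the same residuals as the fit on the compared groups alone, so these are not separate losses.

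**Figure D5:**
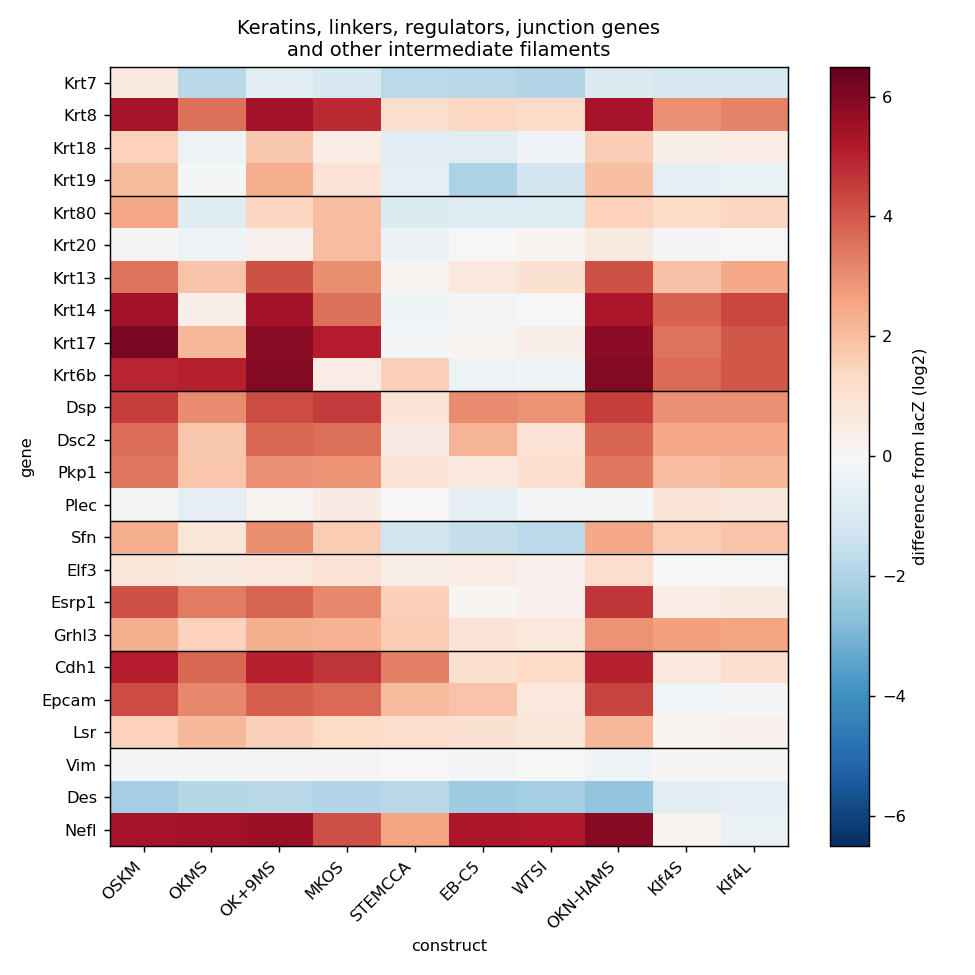
Difference from lacZ (colour, log2, red higher and blue lower) of the 4 keratins and of 20 related genes (rows) in the 10 constructs (columns). Krt14, Krt17 and Krt13 are red in the columns where Krt8 is darkest, Vim is near white in every column, and Epcam is near white in Klf4S and Klf4L.

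Markers of other cell types that make these keratins were read on the same arrays. The mean of 6 mesothelium markers (Krt19 left out) was 6.74 (OKMS) to 8.04 (OSKM) in the cassettes, 8.32 (Klf4S) and 8.34 (Klf4L) with Klf4 alone, and 7.20 in lacZ. Among them Msln read 8.22 (OKMS) to 12.33 (OSKM), 11.61, 11.36 and 10.46, and Upk1b read 6.03 to 8.92, 11.07, 10.94 and 6.58, while Wt1 stayed between 6.94 and 7.27 and Muc16 between 5.11 and 5.22 on all arrays. The 4 highest cassettes of Krt8 were also those of Msln, Upk3b, Upk1b and Lrrn4, of the keratinocyte markers Krt14, Krt1, Dsg3 and Col17a1, of the trophoblast markers Eomes and Hand1, and of Gata4, Pecam1, Cd68, Dcn and Esrrb, where 5.40% of all genes shared them. The mean of 7 keratinocyte markers was 6.57 to 8.26 in the cassettes, 7.56 and 7.67 in Klf4 alone and 6.62 in lacZ, with Krt14 as given above, Dsg3 at 5.33 to 9.28 in the cassettes and Trp63 at 6.88 to 7.17 on all arrays. The mean of 6 trophoblast markers (Krt7 left out) was 6.63 to 7.32 in the cassettes, 6.85 and 6.87 in Klf4 alone and 7.17 in lacZ. Cdx2 read 6.09 to 6.42 and Eomes 5.99 to 6.79 on all arrays, and Gata3 read 6.92 to 8.08 in the cassettes and 10.31 in lacZ. In the cassettes against lacZ, Gata3 was called lower (-2.64 ± 0.38). Endoderm markers had means of 6.80 to 7.07, endothelium markers 6.53 to 6.95 and macrophage markers 6.18 to 6.55 over all arrays. Within those lists, Gata6 read 7.72 to 8.54 in the cassettes, 9.37 (Klf4S), 9.48 (Klf4L) and 8.54 in lacZ. Cd68 read 8.11 to 9.62, 8.43, 8.52 and 8.19 in the same order. The endothelium mean covers members that differed in opposite directions, since in the cassettes against lacZ the receptor gene Tek rose by 3.33 ± 0.29 (limma adjusted p = 0.00093; lacZ 6.24, cassettes 9.05 to 10.03), Kdr fell by 0.52 ± 0.09 (adjusted p = 0.0212) and Emcn differed by -1.23 ± 0.27 (adjusted p = 0.051). Tek read 7.95 in Klf4S and 7.88 in Klf4L. Against Klf4 alone, where 14.5% of all genes were called, Tek (1.65) was called higher in the cassettes. Called lower were Upk1b (-3.80), Upk3b (-1.61), Gata6 (-1.24), Gata3 (-1.12) and the fibroblast markers Col3a1 (-1.19) and Col1a2 (-0.99). Each of these calls was lost without Klf4S and without Klf4L. The 8 pluripotent cell markers had means of 6.29 to 7.45 in the cassettes, 6.13 to 6.26 in Klf4 alone and 6.20 in lacZ. These means cover unlike members. Nanog read 7.33 to 11.05 in the cassettes and 6.65 in lacZ, a mean difference of 2.81 ± 1.15 that was not called. Utf1 read 6.64 to 10.89 in the cassettes and 6.75 in lacZ, and Lin28a 6.74 to 11.66 and 6.83. Zfp42 (5.16 to 5.60) and Dppa3 (5.56 to 5.94) read under 6 on all arrays. The part of these cell types in the keratin differences was not tested.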

How the data were processed

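Total RNA of 11 MEF populations was hybridised to 1 Affymetrix array each. The deposited table holds log2 values, which the authors computed by RMA per the submitters' processing notes. The version and genome build are not given in the sources used here. RMA equalises the arrays' distributions, so large differences can be understated. All columns of the table were used.

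Of 28856 probe sets, 21789 had 1 gene symbol, 1621 several and 5446 none, and 21698 matched a current entry with 0 symbols updated. Genes with several probe sets (999) were represented by the one with the highest mean, which gave 19938 genes. No filter was applied. The 8 cassettes, 2 Klf4 constructs and lacZ were fitted in a single model with limma 3.58.1 (R 4.3.3; lmFit, eBayes, Benjamini-Hochberg over all genes, calls at an adjusted p under 0.05), with 8 residual degrees of freedom. The p-values measure the spread between constructs, not between repeated cultures, and lacZ, with 1 array, borrowed its variance from the other groups. The Klf4 extension was fitted over OKMS, OK+9MS, Klf4S and Klf4L with setting as a term, which left 1 residual degree of freedom. Single arrays were compared by 2-fold counts. Correlations used 100000 two-sided permutations (scipy 1.17.1), or exact permutation for 8 arrays. The rule that a gap over 0.333 of a gene's range separates clusters was set after the values were seen.

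The keratins and all gene lists were chosen with earlier results of these data known. Named genes were the 4 keratins and, from each list, up to 4 called members per comparison and up to 3 uncalled members. Lmnb2 and Prph, also called against Klf4 alone, were named beyond that limit. Also named were the 5 genes most like each keratin, the 8 most like all 4 (mean of at least 6) and the cell type markers. On simulated data for 19938 genes with 200 changed, the comparison of cassettes with lacZ recovered 59.5% at a change of 1 (log2) and 94% at 2. Klf4 alone against lacZ recovered 52% and 82%, cassettes against Klf4 alone 78% and 94.5%, and the extension 0% at both sizes. There were 5 to 17 false calls in the first 3 comparisons. The 200 genes were drawn at random. Over the cassettes the median gene had an SD of 0.159, against 0.87 (Krt7) to 1.99 (Krt8) for the keratins. These recovery rates therefore do not hold for the keratins, and 0 keratins called cannot be read against changes of these sizes. Alternatives were a further quantile normalization, median subtraction, the mean of probe sets, a filter on dim genes, fewer arrays in the fit, eBayes with trend and robust, and each construct left out.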

Additional observations from a re-analysis of the deposited data

Results flagged for a closer look

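Dixon's test at the 95% level was run over the 8 cassettes for 116 genes, and 7 readings stood far from the other 7 cassettes. Chance flags about 1 in 20 groups, so the 7 are near the number it gives. None was a reading of Krt7, Krt8, Krt18 or Krt19. Krt7 in OSKM came close, with a gap to the next cassette of 0.517 of its range against a critical 0.526. Krt20, the gut and urothelial keratin, read 8.31 in MKOS, with OKN-HAMS next at 6.91. Dsp, the desmoplakin gene, read 7.72 in STEMCCA, with 9.76 the next lowest. Slc39a11, a gene most like Krt7, read 9.82 in OSKM, with 9.27 the next highest. Bod1, also among the genes most like Krt7, read 9.22 in OSKM, with 8.84 the next highest. Slc39a11 and Bod1 were named for their likeness to Krt7, so their OSKM readings are not separate from that of Krt7. The pluripotency gene Lin28a read 11.66 in EB-C5, with 8.52 the next highest. The endothelial marker Pecam1 read 6.59 in OSKM, with 6.33 the next highest. The endothelial marker Emcn read 6.38 in OKMS, with 5.92 the next highest.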

How the results depend on the processing

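No alternative brought a keratin past the test: 196 recomputed group differences of the 4 genes kept their direction and side of the threshold and 8 turned. Those were differences near 0 between cassettes and Klf4 alone, Krt7 at 0.018 without OKMS, 0.011 without STEMCCA, 0.022 without EB-C5 and 0.037 without WTSI, and Krt18 at 0.078, 0.13, 0.13 and 0.067 in the same order. Leaving out 1 construct at a time gave -0.33 to 0.037 for Krt7 and -0.21 to 0.13 for Krt18. Many of the 196 could not change direction, so that count says little. Nor does it show that the adjusted p values were stable. For Klf4 alone against lacZ, the lowest over the other processing settings was far under the reported value for each of the 4 keratins, though none passed. Each keratin had 1 probe set, and the mean of probe sets left its values as they were. The dim-gene filter, the compared groups alone and eBayes with trend and robust also left each difference unchanged. So did leaving out an array outside the groups compared. The count of keratin differences from lacZ at 2-fold stayed at 25 of 40 under a further quantile normalization and under median subtraction. The mean of probe sets could not move it. The number of genes called in the cassettes against lacZ (409) was 186 among genes above the median level, 184 with the compared groups alone and 184 to 734 with 1 construct left out. For Klf4 alone against lacZ (149) it was 77, 0 and 36 to 268, and for the cassettes against Klf4 alone (2885) 92 to 3968 with 1 construct left out. With the compared groups alone, the Klf4 fit had 1 residual degree of freedom, and limma called 0 genes. The SD of Krt7 over the cassettes was 0.516 (without OSKM) to 0.938. Past the threshold under an alternative were Krt7 and Krt8 without lacZ (r = 0.76, permutation adjusted p = 0.00974), Krt7 and Krt18 without lacZ (r = 0.91, exact permutation adjusted p = 0.0339), and Krt7 and Krt19 by rho (0.86) and without lacZ (r = 0.76). Without lacZ, however, Krt7 falls into separate clusters, with OSKM (9.35) apart from the rest (8.02 or less). On the arrays used for Krt7 and Krt18 its clusters are 6.96 or less and 7.62 or more. The r values without lacZ therefore do not show how closely these genes followed each other. Correlations between keratins over the 8 cassettes alone were not run, since their levels of Krt7, Krt8 or Krt18 fall into separate clusters. The cause of these shifts was not tested. No paired analysis was possible because the labels give no replicate numbers; the extension fit matches constructs by setting instead. Readings near 6, such as those of Epcam in Klf4 alone, limit how far a difference can be read.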
